A study of Homo sapiens with 24 samples.

Results

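The zinc finger genes described here are the 207 named ZNF500 to ZNF799, chosen by symbol alone from a gene table of 19932 named genes. The table came from HCC827, a human lung adenocarcinoma line with a mutated epidermal growth factor receptor (EGFR), studied under osimertinib, an inhibitor of that receptor. Its 18 libraries formed 6 groups of 3, being Parental, DTP (drug-tolerant persister) and Resistant cells, each with OC, the overexpressed circular RNA cATF6, or with EV, the empty vector. A further 3 Osi and 3 DMSO libraries, from cells treated for 10 days, were measured for circular RNAs. No label says whether the 3 libraries of a group were grown apart, so p-values measure their spread, which may be technical.

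Most of these genes encode proteins with arrays of C2H2 fingers, short zinc-holding loops that read DNA. Many also carry a KRAB domain, which recruits the corepressor TRIM28 and the histone methyltransferase SETDB1 to silence chromatin, above all at transposable elements. Others lack KRAB and work as ribosome factors, chromatin partners or developmental regulators. KRAB genes lie in clusters that grew by tandem duplication, many of them on chromosome 19. A search of the longest open reading frames in GENCODE transcripts found a C2H2 pattern in 202 of the 207 members, with a median of 10 and a maximum of 39 (ZNF729), and a KRAB-like pattern in 136.

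Library totals ranged from 30075330 to 45068508 counts. Of the members, 189 had at least 10 counts in at least 3 of the 12 Parental and DTP libraries, 159 did so in the 6 Resistant libraries, and 16 did so nowhere in the 18. ATF6, the gene from which cATF6 derives, stood at 18355, 17791 and 18379.6 scaled counts in Parental OC, against 2884, 2966 and 2999 in Parental EV, and was likewise higher in every OC library of the other states. The Resistant libraries form a library series of their own in the labels, so the Resistant state and the library series cannot be told apart. They also stood apart in markers of origin. The summed lung adenocarcinoma or alveolar markers (NKX2-1, NAPSA, SFTPB and SFTPC) reached 40.3 to 60.9 scaled counts in Resistant EV and 6.38 to 58.5 in Resistant OC, against 8526 to 8724 in Parental EV and 8412 to 8703 in Parental OC. The 6 epithelial markers, keratins among them, were present in every group and summed to 852725 to 879782 in Resistant EV, against 256027 to 262569 in Parental EV. All 4 keratins were higher, above all KRT8 (mean 435407 against 66012) and KRT18 (242617 against 51726). EPCAM (9584 against 12935) and CDH1 (30408 against 33130) were lower. The endothelial list summed to 564 to 658 in Resistant EV, against 151 to 179 in Parental EV. Most of that rise was CDH5 (mean 462 against 19.7), while VWF had 30.6 against 7.52 and PECAM1 was lower (127 against 140). The summed immune list stood at 44487 to 46367 in Resistant EV, against 5375 to 5556 in Parental EV, nearly all from CD68, while CD3E was at or near 0 in every group. The labels give HCC827 for all libraries. Whether the libraries labelled Resistant hold the same line as the others, and whether their reads were counted in the same way, was not tested, nor was the part of these differences in the results on them. In bulk RNA fewer cells of a kind cannot be told apart from less RNA per cell.

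The promoters below are shown because 10 members of a block on chromosome 19 that was listed at 0 in the Resistant libraries share a 10-letter word, which genes with counts in those libraries hold as well, the neighbour ZNF254 among them. Each is the 150 bases before the gene's start in RefSeq (GRCh38.p14), 5′ to 3′ along the gene. The members are ZNF737 at chr19:20565782-20565931 (minus strand), ZNF626 at chr19:20661572-20661721 (minus strand), ZNF681 at chr19:23758892-23759041 (minus strand) and ZNF726 at chr19:23914736-23914885 (plus strand). The neighbour is ZNF254 at chr19:24087037-24087186 (plus strand). Capitals mark TCCAATCAGG, which contains CCAAT, the letters of the CCAAT box.
ZNF737: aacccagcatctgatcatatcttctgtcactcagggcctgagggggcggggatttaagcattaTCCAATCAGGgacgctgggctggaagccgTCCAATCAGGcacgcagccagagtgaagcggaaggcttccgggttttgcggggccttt
ZNF626: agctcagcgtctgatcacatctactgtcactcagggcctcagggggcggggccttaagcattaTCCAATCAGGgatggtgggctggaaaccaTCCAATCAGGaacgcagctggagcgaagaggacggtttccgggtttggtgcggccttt
ZNF681: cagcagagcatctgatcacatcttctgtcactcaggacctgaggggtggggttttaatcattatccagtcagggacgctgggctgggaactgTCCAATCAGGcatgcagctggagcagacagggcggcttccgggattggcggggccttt
ZNF726: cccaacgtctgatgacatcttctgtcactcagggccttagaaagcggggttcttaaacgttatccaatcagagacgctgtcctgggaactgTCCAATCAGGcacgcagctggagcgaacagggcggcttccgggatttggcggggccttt
ZNF254: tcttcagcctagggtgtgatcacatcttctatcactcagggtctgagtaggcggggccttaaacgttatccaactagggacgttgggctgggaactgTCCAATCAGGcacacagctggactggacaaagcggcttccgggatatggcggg
The word was picked as the 10-letter word found in most of the block's promoters, so its counts are a description. Other 10-letter words were nearly as common, such as CTGTCACTCA in 19 of the block's promoters and CCCGGAAGCC in 15. Searched on both strands over 250 bases, TCCAATCAGG stood in 10 of the 10 promoters of the block's members that RefSeq gave and in 21 of 23 promoters of the whole block. It stood in 1 of 13 promoters of members listed at 0 outside the block, in 9 of 136 (6.62%) of the other members that passed the count minimum, and in 66 of 11322 (0.583%) of all genes that passed it. Among ZNF genes that passed and had a count in a Resistant library, 27 of 354 promoters (7.63%) held it, those of ZNF254, ZNF14 and ZNF101 on chromosome 19 among them. CCAAT alone stood in 34.7% of all promoters. The median number of CG pairs was 7.5 in promoters of the block's members and 20 in those of all genes that passed. It was 14 for members listed at 0 outside the block and 18 for ZNF genes with a count in a Resistant library. The neighbour ZNF254, which had such counts, held 7.

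The clearest feature of the members was a set listed at 0 in all 6 Resistant libraries. It held 37 of the 207, of which 26 had passed the count minimum in the Parental and DTP libraries, 5 were at 0 in all 18 libraries, and 6 had a few counts elsewhere. The 26 were 13.8% of the 189 members that passed, beside 3.3% of all 14582 genes, 10% of 280 other ZNF genes and 3.03% of genes without a ZNF symbol. No test was made of this difference. The same 26 were found when up to 1 count per library was allowed. A listed 0 may be a missing value, since UBE2M, an enzyme of the neddylation pathway used in every cell, was also at 0 in all 6 Resistant libraries, against 2655, 2708 and 2942 scaled counts in Parental EV. No fold change is therefore given for these members.

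The set held genes of high and low level. ZNF736 had 0 scaled counts in all 6 Resistant libraries, against 779, 771 and 764 in Parental EV. ZNF667 was listed at 0 in the same way, against 992, 1025 and 1054 in Parental EV. ZNF626 was at 0 in the Resistant libraries, against 791, 711 and 723 in Parental EV. These and ZNF737 and ZNF675 had the highest means of the 26 over the Parental and DTP libraries. ZNF534, the first of the 37 by symbol, had at most 6.26 scaled counts in any library and ZNF738, the last, had 208, 263 and 198 in Parental EV. A KRAB pattern was found in 24 of the 26, and in 125 of the 189 members that passed. The exceptions include ZNF711, an X-linked gene tied to intellectual disability, with 37.7, 81.4 and 51.8 in DTP EV and 14.2, 15.5 and 19.1 in Parental EV.

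**Figure D1:**
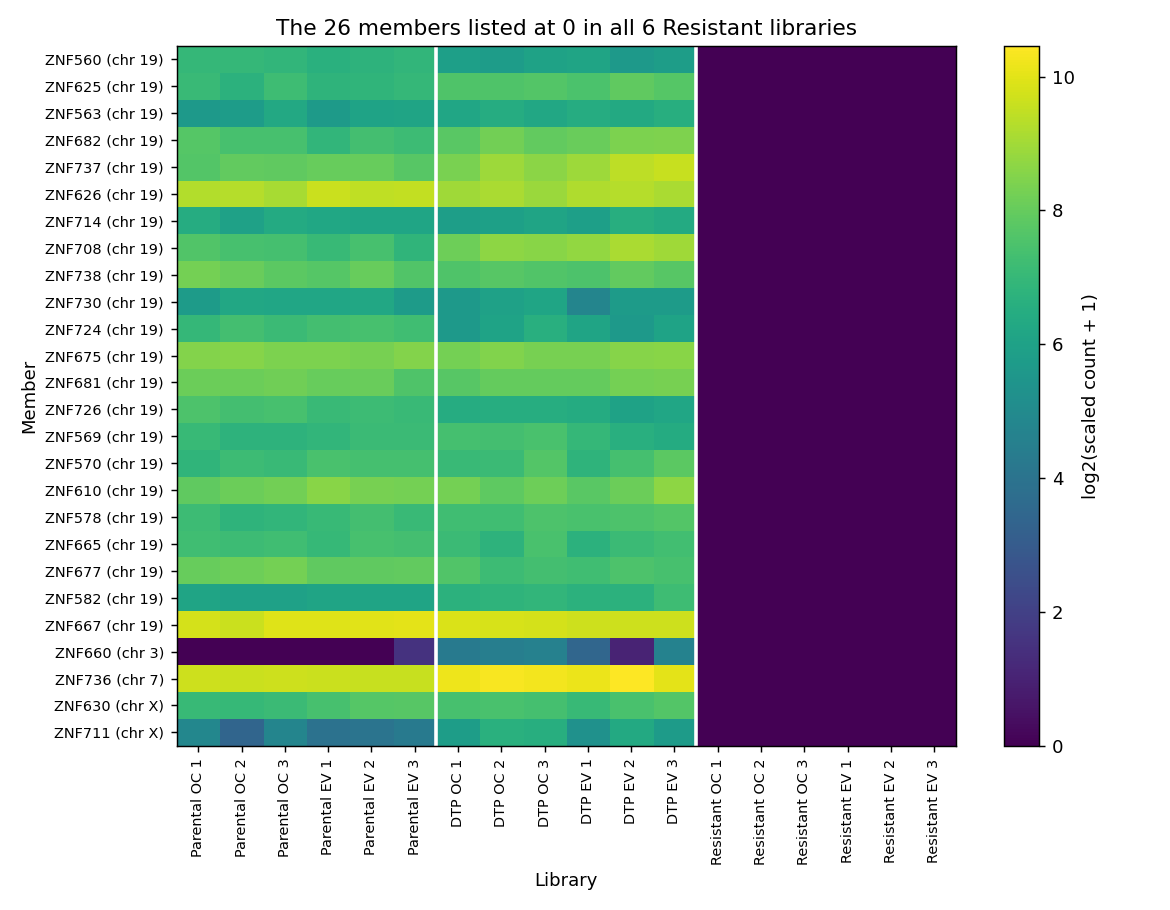
Heat map of log2(scaled count + 1) for the 26 members (rows, with chromosome) in the 18 libraries (columns, grouped by state, OC before EV). All 26 rows are at 0 in the 6 Resistant columns, while ZNF736, ZNF667 and ZNF626 have the highest means over the other 12.

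Of the 26, 22 were among the 99 passing members on chromosome 19 and 4 among the 89 on other chromosomes. In RefSeq gene order, 11 of them (ZNF682, ZNF737, ZNF626, ZNF714, ZNF708, ZNF738, ZNF730, ZNF724, ZNF675, ZNF681 and ZNF726) lay in a run of 25 consecutive passing genes, ZNF253 to ZNF726, all listed at 0. The other 14 genes of the run were ZNF genes too, ZNF91 and ZNF43 among them. It was the longest such run among the passing genes with a place in RefSeq, and the next had 6 genes. From its first to its last gene the table held 33 named genes, all with ZNF symbols, and none had a count in a Resistant library. The 25 genes together had 0 counts in each Resistant library, against 7181, 8758 and 7600 counts in Parental EV. DTP EV had 7485, 9578 and 8585.

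Genes at the edges of the run were low without being at 0. ZNF506, a member next to its first gene, had 18.7, 4.88 and 18.2 scaled counts in Resistant EV, against 399, 411 and 439 in Parental EV. ZNF254, next to its last gene, had 13.1, 12.2 and 9.72 in Resistant EV, against 694, 641 and 594 in Parental EV. ZNF101, further out, had 225, 209 and 223 in Resistant EV, against 211, 248 and 222 in Parental EV, and these groups overlapped. In OC its groups stayed apart, with 168, 187 and 188 in Resistant OC, against 265, 255 and 249.8 in Parental OC. ZNF14 had 59, 56.2 and 25.5 in Resistant EV, against 187, 238 and 188 in Parental EV. Counting all members, a gene at 0 stood beside 18 of the 26 at 0 and beside 19 of the 162 others placed on a chromosome. Of those 18, 11 lay in the run, where a neighbour at 0 follows from how the run was defined.

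**Figure D2:**
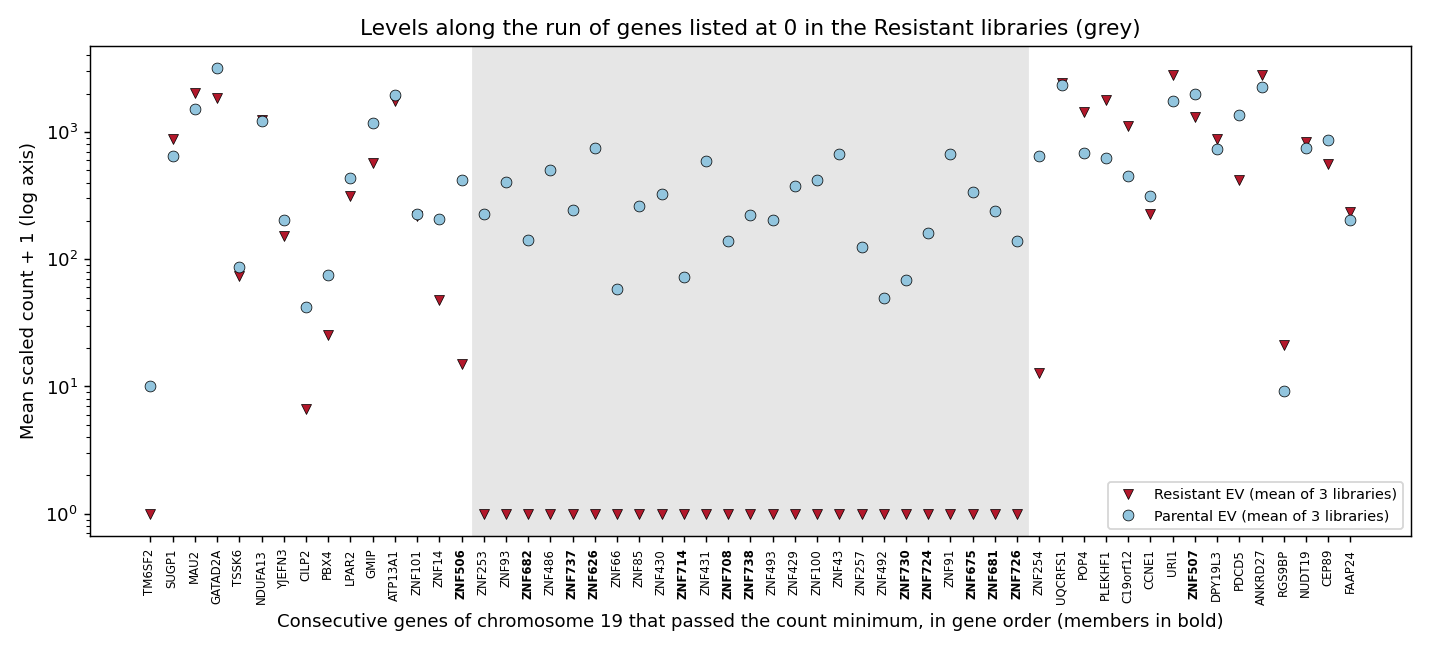
Mean scaled count + 1 (log axis) of consecutive chromosome 19 genes in gene order, for Resistant EV (triangles) and Parental EV (circles), means of 3 libraries, with members in bold and the run of 25 genes in grey. In the grey band every Resistant EV point is at the floor of the axis, and ZNF506 and ZNF254 on either side are low but above it.

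Among members with counts in the Resistant libraries, most differed from Parental, as did most genes. Of 165 tested, 57 were higher and 75 lower in Resistant EV than in Parental EV by limma (adjusted p under 0.05), that is 132 members, where 81.8% of all genes passed (39.6% higher and 42.2% lower). In Resistant OC against Parental OC, 62 were higher and 74 lower, where 81.6% of genes passed (39.6% higher and 42% lower). At least a 2-fold change was met by 69 (41.8%) and 71 (43%) members in EV and OC, where 47.4% and 47.7% of genes met it. Members called the same way in both comparisons, which share no library, numbered 53 higher and 66 lower. ZNF768 and ZNF526 passed in opposite directions. The same counts were not taken over all genes, and both comparisons used the pooled spread of the same fit. The median log2 fold change of the members was −0.22 in EV and −0.17 in OC, beside −0.05 for all genes in each.

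ZNF750, a regulator of epidermal differentiation, had 1269, 1109.8 and 1315 scaled counts in Resistant EV, against 2.03, 3.44 and 6.68 in Parental EV. DTP EV had 0 in its 3 libraries. ZNF750 and ZNF662 met the count minimum only through the Resistant libraries and so had to differ, and no test is given for them, though the counts above hold both. In turn, ZNF506, ZNF540, ZNF671, ZNF732, ZNF763 and ZNF793 met it only through the Parental and DTP libraries. The filter thus favoured a fall in them, and the counts and medians above hold them too. ZNF703, a corepressor of the NET family known from luminal breast cancer, had 451, 553 and 479 in Resistant EV, against 56.7, 49.8 and 35.3 in Parental EV (log2 fold change 3.38 ± 0.22 (SE), adjusted p = 1.44e-10). Its relative ZNF503 had 821, 907 and 856 in Resistant EV, against 155, 165 and 143 in Parental EV (log2 fold change 2.47 ± 0.13 (SE), adjusted p = 8.49e-12). Both NET genes were higher in every Resistant library than in any Parental one. Between Resistant EV and Parental EV, 84.6% of all genes did not overlap. ZNF655 rose too, with 2800.3, 2818 and 2945 in Resistant EV, against 367, 401 and 356 in Parental EV. ZNF575 had 112, 118 and 151 in Resistant EV, against 10.1, 14.6 and 4.77 in Parental EV. ZNF662 had 169, 162 and 149 in Resistant EV, against 3.04, 0 and 0 in Parental EV.

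The deepest falls among tested members came close to the listed zeros. ZNF618 had 8.44, 9.77 and 4.86 scaled counts in Resistant EV, against 1932, 1909 and 1696 in Parental EV (log2 fold change -7.78 ± 0.30 (SE), adjusted p = 1.49e-13). ZNF608 had 5.62, 15.9 and 17 in Resistant EV, against 1515, 1585 and 1418 in Parental EV (log2 fold change -6.90 ± 0.30 (SE), adjusted p = 7.26e-13). ZNF793 had 1.87, 0 and 0 in Resistant EV and ZNF732 had 0, 3.66 and 0, and both were at 0 in Resistant OC. These are the members just outside the set at 0. The level of both in Parental EV was above 100, at 289, 349.7 and 303 for ZNF793 and 104, 122 and 121 for ZNF732.

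Members with known roles outside KRAB silencing moved in both directions. ZNF609, a chromatin gene best known as the host of a circular RNA, had 1708, 1533 and 1416 scaled counts in Resistant EV, against 5031, 4811 and 5049 in Parental EV (log2 fold change -1.68 ± 0.07 (SE), adjusted p = 6.06e-13). ZNF598, a ubiquitin ligase that senses collided ribosomes, fell by 1.16 on the log2 scale, and ZNF593, a ribosome assembly factor, by 2.31. ZNF622, which acts late in maturation of the large ribosomal subunit, rose by 1.11. Of the 3 related partners of the chromatin reader ZMYND8, ZNF592 rose by 0.87 and ZNF687 by 0.59, while ZNF532 fell by 1.22. ZNF644, a partner of the histone methyltransferases G9a and GLP, fell by 0.74. Each of these passed in the same direction in OC.

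**Figure D3:**
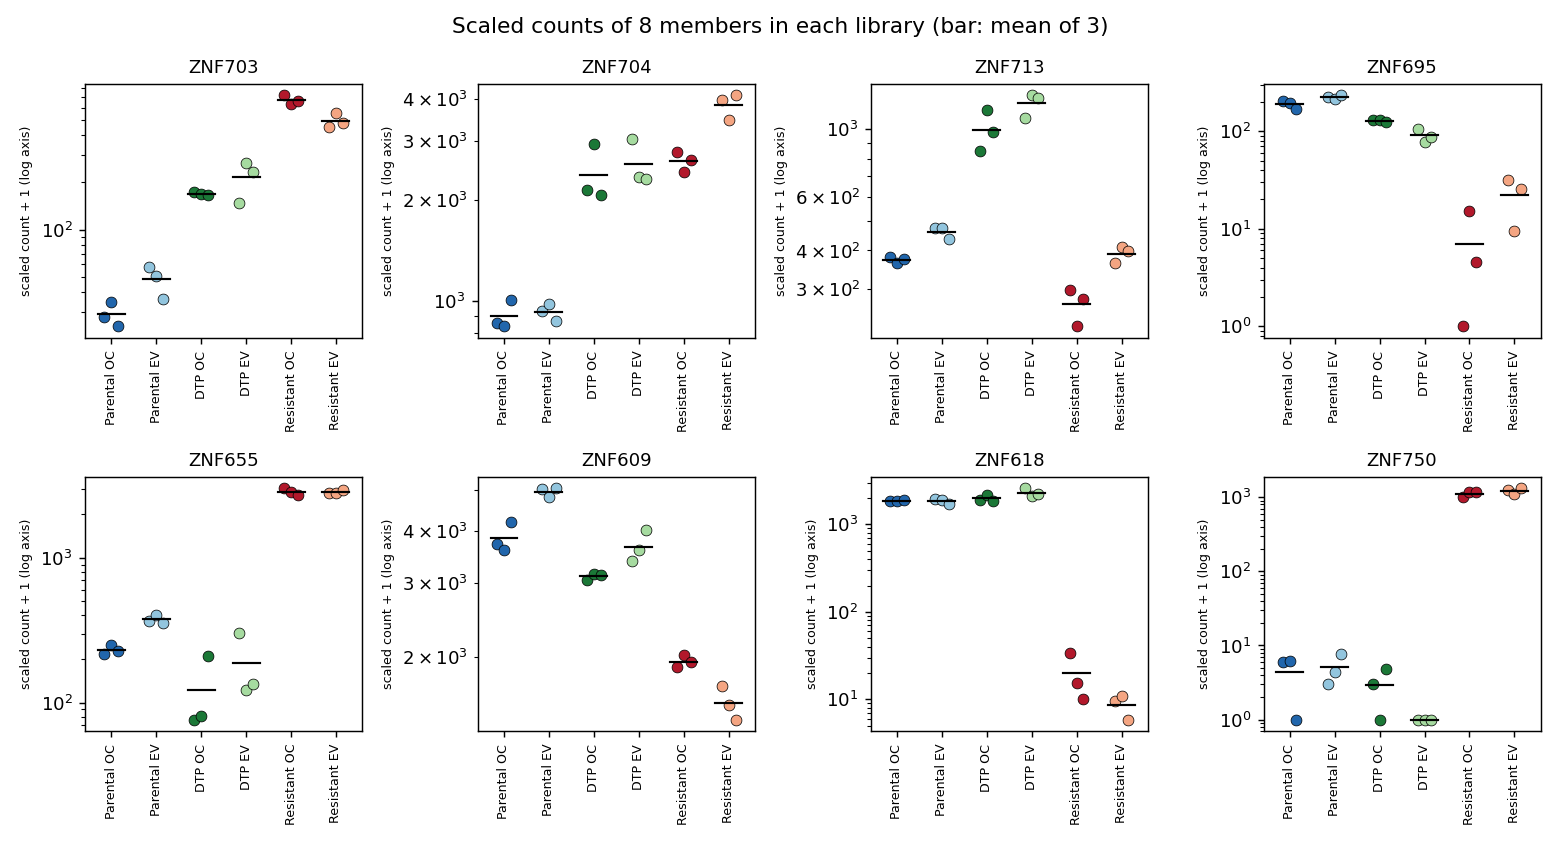
Scaled count + 1 (log axis) of 8 members in each of the 18 libraries, with states in the order Parental, DTP and Resistant and OC before EV in each (points are libraries, bars are means of 3). ZNF703 and ZNF750 are highest in the Resistant libraries, ZNF618 and ZNF695 lowest there, and ZNF713 is highest in DTP.

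In the persister state, 59 members were higher and 44 lower in DTP EV than in Parental EV by limma, 103 of 189 tested, where 63.1% of all genes passed (31.5% higher and 31.5% lower). In DTP OC against Parental OC, 60 were higher and 34 lower, where 59.2% of genes passed (30.7% higher and 28.5% lower). At least a 2-fold change was met by 19 (10.1%) and 15 (7.94%) members in EV and OC, where 18.8% and 16.6% of genes met it. With quantile normalization the split in OC was 46 higher and 42 lower. The 2 comparisons share no library. In both, 45 members rose and 24 fell, and only ZNF581 passed in opposite directions. Those called the same way in both were 67% of the calls in EV and 73.4% of those in OC. The same shares were not taken over all genes, and both comparisons used the pooled spread of the same fit. The median log2 fold change was 0.00 in EV and 0.12 in OC, beside 0.00 for all genes in each. Marker sums moved in DTP cells as well. The fibroblast list summed to 1369 to 1507 scaled counts in DTP EV, against 528 to 570.2 in Parental EV, and the immune list to 1036 to 2082, against 5375 to 5556. Most of that fall was CD68 (mean 1463 against 5416), while PTPRC was slightly higher (6.70 against 0). The endothelial list summed to 209 to 448 in DTP EV, against 151 to 179 in Parental EV. Within it CDH5 (mean 283 against 19.7) and VWF (60.5 against 7.52) were higher, and PECAM1 was lower (17.0 against 140). The lung adenocarcinoma or alveolar list summed to 5431 to 8232 in DTP EV, against 8526 to 8724 in Parental EV, and to 4556 to 4707 in DTP OC, against 8412 to 8703 in Parental OC. Its genes went both ways. NAPSA averaged 3364 in DTP EV, against 6052 in Parental EV, while NKX2-1 averaged 3616, against 2555. In OC the means were 1355 in DTP, against 5861 in Parental, for NAPSA and 3284, against 2700, for NKX2-1. SFTPB and SFTPC added little to the sums. The part of these differences in the persister results was not tested.

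ZNF703 rose in DTP cells too, with 146, 265 and 233 scaled counts in DTP EV, against 56.7, 49.8 and 35.3 in Parental EV (log2 fold change 2.14 ± 0.24 (SE), adjusted p = 8.39e-06). ZNF704 had 3042, 2342 and 2301 in DTP EV, against 931, 977 and 867 in Parental EV (log2 fold change 1.46 ± 0.14 (SE), adjusted p = 1.65e-06). ZNF552 had 699, 1029 and 1002 in DTP EV, against 288, 334 and 258 in Parental EV (log2 fold change 1.62 ± 0.14 (SE), adjusted p = 8.63e-07). None of these groups overlapped, which the rule for naming members required and which held for 66.2% of all genes. All of these members rose in OC as well. ZNF713 rose by 1.39 in EV and 1.40 in OC, and ZNF763 by 2.26 and 3.38. Over 20% of the 100-base words of both ZNF713 and ZNF763 also occur in another gene, so their values are uncertain. ZNF711 rose by 1.69 and 2.01, from low counts.

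Several members of the chromosome 19 block also differed between DTP and Parental cells. ZNF708 had 437, 559 and 502 scaled counts in DTP EV, against 129.6, 169 and 115 in Parental EV (log2 fold change 1.86 ± 0.17 (SE), adjusted p = 1.61e-06). ZNF737 rose by 1.38 and ZNF682 by 1.16 on the log2 scale in EV. ZNF724 fell by 1.39, with the same doubt over shared sequence, and ZNF726 fell by 0.89. Of the 26 members at 0 in Resistant cells, 9 rose, 6 fell and 11 did not pass in EV, where 31.5% of all genes rose and 31.5% fell, so this split is near that of the table as a whole. Their median log2 fold change was 0.02, beside 0.00 for all genes.

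Falls in DTP cells were led by ZNF732, with 37.7, 27.1 and 27 scaled counts in DTP EV, against 104, 122 and 121 in Parental EV (log2 fold change -1.90 ± 0.17 (SE), adjusted p = 1.32e-06). ZNF695 had 105, 76.2 and 86.7 in DTP EV, against 224, 214 and 233 in Parental EV (log2 fold change -1.32 ± 0.14 (SE), adjusted p = 3.72e-06), though not past the threshold in an 18-library fit (adjusted p by limma = 0.0954). ZNF595 had 224, 221 and 314 in DTP EV, against 629, 583 and 652 in Parental EV (log2 fold change -1.31 ± 0.13 (SE), adjusted p = 2.3e-06). In each the groups stayed apart, as the naming rule required. ZNF560 fell by 0.90 in EV and 1.04 in OC. ZNF655 had 304, 121 and 134 in DTP EV, against 367, 401 and 356 in Parental EV (log2 fold change -1.13 ± 0.38 (SE), adjusted p = 0.0198), and lost the call when Parental EV 2, DTP EV 2 or DTP EV 3 was left out (0.0555, 0.0823 and 0.0718 as limma's adjusted p). In the Resistant libraries the same gene rose.

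Among members with other roles, ZNF532 had 6523, 7581 and 8261 scaled counts in DTP EV, against 4758, 4842 and 4492 in Parental EV (log2 fold change 0.66 ± 0.07 (SE), adjusted p = 6.64e-06), the opposite direction from the Resistant libraries. ZNF622 rose by 0.57 in EV and 0.62 in OC. ZNF609 fell by 0.44 in EV and 0.30 in OC. ZNF598 fell by 0.51 in EV. ZNF503 rose by 0.85 in OC, while in EV its log2 fold change of 0.22 did not pass (adjusted p by limma 0.164). ZNF638, a partner of the HUSH silencing complex, ZNF652, ZNF687 and ZNF516 passed in neither, with log2 fold changes between −0.15 and 0.10.

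**Figure D4:**
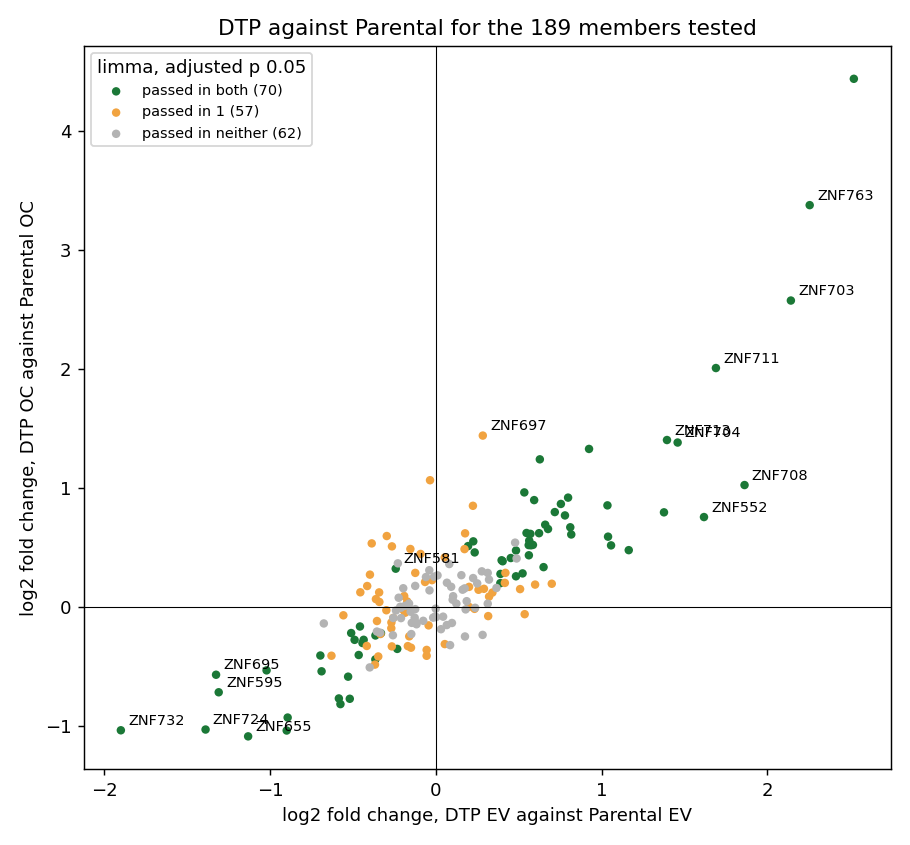
Log2 fold change of the 189 members in DTP EV against Parental EV (x axis) and in DTP OC against Parental OC (y axis), coloured by whether limma's adjusted p passed 0.05 in both, 1 or neither. ZNF763, ZNF703, ZNF711, ZNF704 and ZNF713 lie to the upper right and ZNF732, ZNF724 and ZNF655 to the lower left.

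A list of 25 measured corepressor and heterochromatin genes was examined, chosen as partners of KRAB proteins or of named members. TRIM28, the scaffold that KRAB domains bind, had 11002, 10698 and 10506 scaled counts in Resistant EV, against 14949, 14841 and 14929.8 in Parental EV (log2 fold change −0.47, adjusted p by limma = 4.28e-07). In DTP EV its log2 fold change against Parental EV was 0.03 (adjusted p = 0.728). SETDB1 fell by 0.28 in DTP EV (adjusted p by limma = 0.00123), while in Resistant EV its log2 fold change of −0.04 did not pass (adjusted p by limma = 0.650). Across the list, 3 genes rose and 13 fell in DTP EV against Parental EV, with a median of −0.14, where 31.5% of all genes rose and 31.5% fell, with a median of 0.00. In Resistant EV against Parental EV, 2 rose and 17 fell, with a median of −0.58, where 39.6% of all genes rose and 42.2% fell, with a median of −0.05. No test was made of the list. The smallest p-values in DTP EV were those of ZMYND8, FAM208A and DNMT1, which fell by 1.34, 0.63 and 0.64.

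Overexpression of cATF6 changed fewer members. In Parental cells 8 were higher and 23 lower in OC than in EV by limma, 31 of 189, where 17% of all genes passed (7.58% higher and 9.4% lower). None of these changed at least 2-fold, where 1.17% of genes did. The count was 69 when only those 6 libraries were fitted, and 15 to 20 without any 1 of them. ZNF543 had 184, 179.6 and 143 scaled counts in Parental OC, against 303, 286 and 282 in Parental EV (log2 fold change -0.79 ± 0.12 (SE), adjusted p = 0.00129). ZNF699 had 144, 135 and 163 in Parental OC, against 279.5, 231 and 228 in Parental EV (log2 fold change -0.74 ± 0.13 (SE), adjusted p = 0.00271). ZNF609 fell by 0.37 and ZNF592 by 0.39. Neither ZNF543 nor ZNF699 overlapped between the groups, as the naming rule required, and the same held for 50.1% of all genes. ZNF511 rose by 0.34, and it shares over 20% of its 100-base words with another gene. ZNF699 and ZNF511 did not pass when all 18 libraries were fitted together (adjusted p by limma of 0.0898 and 0.0741).

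In DTP cells 6 members were higher and 9 lower in OC than in EV by limma, 15 of 189, where 22% of all genes passed (12.3% higher and 9.68% lower). None of these changed at least 2-fold, where 2.02% of genes did. The libraries of DTP EV were uneven, and this count was 42 without DTP EV 1, 5 without DTP EV 2, 4 without DTP EV 3, 9 without DTP OC 1, 4 without DTP OC 3, and 0 when only those 6 libraries were fitted. ZNF569 had 164, 160.4 and 177 scaled counts in DTP OC, against 123, 95 and 84.4 in DTP EV (log2 fold change 0.74 ± 0.16 (SE), adjusted p = 0.0076). ZNF697 had 661, 696 and 636 in DTP OC, against 556, 367 and 413 in DTP EV (log2 fold change 0.60 ± 0.14 (SE), adjusted p = 0.0108). The groups of both genes stayed apart, as the naming rule required, and the same held for 30.1% of all genes. Neither gene passed in the fit of 6 libraries (adjusted p by limma of 0.068 and 0.0728).

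The effect of OC was compared between the states by its difference, DTP minus Parental. By limma, 13 members had a more positive effect in DTP and 6 a more negative one, 19 of 189, where 11.4% of all genes passed (6.69% and 4.69%). At least 2-fold was met by 1 member (0.529%), ZNF697, where 1.82% of genes met it. With quantile normalization the split was 8 and 7. ZNF697 had a log2 effect of 0.60 in DTP and -0.56 in Parental, a difference of 1.16 (adjusted p by limma = 0.00425). ZNF543 had effects of 0.11 and -0.79 in DTP and Parental, a difference of 0.89 (adjusted p by limma = 0.00862). ZNF552 went the other way, with -0.40 in DTP and 0.46 in Parental. The count of 19 was 38 without DTP EV 1, 5 without Parental EV 3 or DTP OC 3, 6 without Parental EV 2 or Parental OC 2, 7 without Parental EV 1 or Parental OC 3, 8 without Parental OC 1, 10 without DTP OC 2, and 11 without DTP EV 2 or DTP OC 1.

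**Figure D5:**
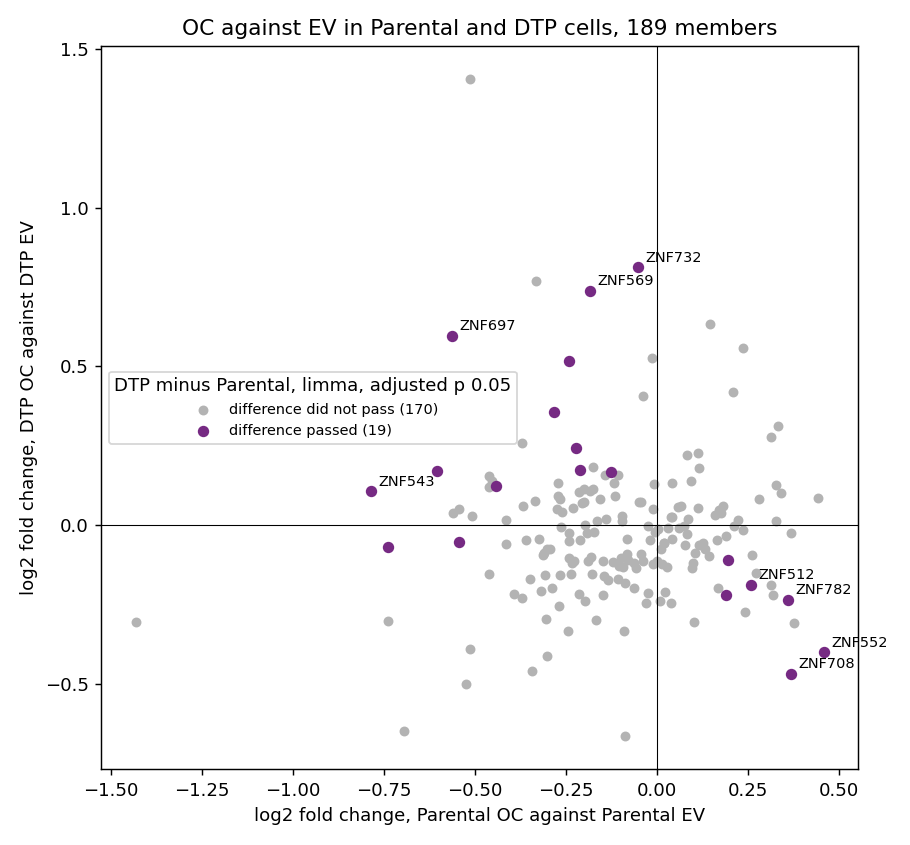
Log2 fold change of OC against EV for the 189 members in Parental cells (x axis) and in DTP cells (y axis), with the 19 members whose difference passed limma's adjusted p of 0.05 in purple. ZNF697, ZNF569 and ZNF732 lie above 0 in DTP and below 0 in Parental, and ZNF552, ZNF708 and ZNF782 lie the other way.

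In Resistant cells 11 members were higher and 19 lower in OC than in EV by limma, 30 of 159 tested, where 38.2% of all genes passed (16.7% higher and 21.4% lower). At least 2-fold was met by 2 members (1.26%), where 5.32% of genes met it. With quantile normalization the split was 12 and 13. ZNF581 had 2812, 3449 and 3124 scaled counts in Resistant OC, against 1591, 1791 and 1597 in Resistant EV (log2 fold change 0.91 ± 0.08 (SE), adjusted p = 1.35e-06). In Parental cells the same gene had 722, 752 and 739 in OC, against 968, 1006 and 1032 in EV. It was thus higher with OC in Resistant cells and lower with OC in Parental cells, and that difference was not tested. ZNF514 rose by 0.82 and ZNF526 by 0.55, and ZNF620 fell by 0.67. ZNF503 and ZNF703 each rose by 0.45. The median log2 fold change of the members was −0.05, beside −0.03 for all genes.

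Circular RNAs gave a second readout on the same genes in the Osi and DMSO libraries. Members hosted 33 of the 2997 listed circular RNAs, from 25 genes. Their back-splice reads summed to 128, 103 and 99.3 in Osi, against 31.2, 70.9 and 79.3 in DMSO, and these groups did not overlap. Total back-splice reads were also higher, at 7333, 7299.9 and 7129.7 in Osi, against 4944, 5996 and 5870.5 in DMSO. Of 871 circular RNAs that reached 2 reads in 3 or more libraries, 13 came from members, and 0 of these and 0 of all (0%) passed limma's adjusted p of 0.05, with 2 and 124 at an unadjusted p under 0.05. When values a rounding error under 2 were not allowed for, 29 of 719 passed, and 0 of these were from members. By the authors' deposited table, no circular RNA of a member had an adjusted p under 0.05, a count of 0. The circular RNA of ZNF547 had 2, 2 and 3 reads in Osi, against 0, 0 and 0 in DMSO, and gave the smallest adjusted p by limma of the 13, 0.104. With 0 reads in each DMSO library, it could meet the minimum only by reaching 2 in every Osi library. Its difference was therefore set by that minimum. A circular RNA of ZNF609 had 31, 35 and 23 reads in Osi, against 0, 19 and 28 in DMSO, and its groups overlapped.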

How the data were processed

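The authors deposited 1 gene table for 18 libraries and 1 circular RNA table for 6, with values on a log10 scale, log10(count + 1), read from the values themselves. Per the submitters' processing notes, FastQC, STAR, featureCounts and MultiQC were used with build hg19; versions, the strand setting and the caller of circular RNAs are not given in the sources used here. Per the labels' protocols, ribosomal RNA was removed and libraries were directional. The adjusted p-value of each circular RNA in the deposited table is the authors' own.

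Values were turned back to counts (100% whole for genes, 64.8% of those above 0 for circular RNAs). Left out were 2557 lines of unnamed genes, 15 symbols that each stood in several lines, and 6 columns of per-sample values that matched no sample. Counts were scaled by trimmed mean of M-values and tested with limma 3.58.1 in R 4.3.3 on log2 values with a pseudocount of 1 (mean-variance trend, Benjamini-Hochberg adjustment over all genes tested, 0.05), so fold changes understate those of low genes. Genes needed 10 counts in 3 libraries. Parental and DTP were fitted over 12 libraries, Resistant OC against EV over 6, and Resistant against Parental over 18 without genes at 0 in all Resistant libraries, whose zeros would shrink the pooled spread. The scripts were tested on simulated data. Replicates in each group differed by more than counting noise. Samples were grouped by the labels.

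Circular RNAs needed at least 2 reads in at least 3 libraries. In a first run the comparison with 2 was exact, and values a rounding error below 2 were lost, which left 719 circular RNAs. The corrected filter keeps 871, and was applied after the first result had been seen.

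Genes named are, per comparison, the members that passed, did not overlap and averaged at least 100, by size of change, with a list of members of known role. The members and lists were chosen with earlier results of these data known. Alternatives were other scalings, filters, pseudocounts, fits and leaving out each library.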

Additional observations from a re-analysis of the deposited data

Results flagged for a closer look

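The effect of OC differed between DTP and Parental cells, tested as the difference itself in limma, for 19 of 189 members (10.1%), where 11.4% of all genes passed. Of those that the naming rule picked, the difference (DTP minus Parental, log2) was 1.16 for ZNF697, 0.92 for ZNF569, 0.89 for ZNF543 and 0.86 for ZNF732. It was -0.86 for ZNF552, -0.84 for ZNF708, -0.60 for ZNF782 and -0.45 for ZNF512, whose sequence is partly shared with another gene. ZNF697 and ZNF543 stayed past the threshold when any 1 library was left out, and ZNF552 lost it only without DTP OC 3 (adjusted p by limma = 0.0541). The others lost it without several libraries.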

How the results depend on the processing

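Directions held for every named member under every alternative run, and 71 of 1146 gene values without a left-out library, and 152 of 864 with one, no longer passed. Where the naming rule required groups that did not overlap, leaving out a library could not reverse the direction. For those members that part of the result was fixed by the rule. Requiring a 2-fold change left 19 members in DTP EV against Parental EV, 15 in DTP OC against Parental OC, 0 for OC in Parental, 0 for OC in DTP, 1 for the difference, 2 for OC in Resistant, 69 in Resistant EV and 71 in Resistant OC against Parental. Fitting only the 6 libraries compared gave 69 for OC in Parental and 0 for OC in DTP, and an 18-library fit gave 10 for the difference; the cause was not tested. Leaving out 1 library gave 83 to 107 for DTP EV, 77 to 88 for DTP OC, 15 to 20 for OC in Parental, 4 to 42 for OC in DTP, 5 to 38 for the difference, 22 to 30 for OC in Resistant, 125 to 131 for Resistant EV, 131 to 136 for Resistant OC and 0 to 0 for circular RNAs. Of the 153 members never under 100 counts in the 12 Parental and DTP libraries, 16 (10.5%) were at 0 in the Resistant libraries, beside 7.79% of other ZNF genes and 1.01% of all genes. Of the 91 never under 300 counts there, 4 (4.4%) were at 0, beside 3.92% and 0.538%. With no allowance for rounding in the circular RNA filter, 29 of 719 passed, none of them among the 11 from members, against 0 of 871 with it; this, the circular RNA leave-one-outs and the 300-count minimum were chosen after seeing the data. Same-numbered libraries did not deviate together (correlations −0.06 to 0.04), and the main fits did not pair them. This does not show whether they were prepared together. With the replicate block, the counts were 100, 91, 29, 12, 15, 30, 132 and 136 in the order DTP EV, DTP OC, OC in Parental, OC in DTP, the difference, OC in Resistant, Resistant EV and Resistant OC. At 3 libraries a group, low members are the least certain.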
